A study of Rattus norvegicus with 132 samples.

Results

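Fth1 and Ftl1, the heavy and light chains of ferritin, and Cp, ceruloplasmin, are 3 of the 9271 genes with a signal in these rat kidney sections. They were chosen by name as genes of iron storage and iron oxidation, and their own rows were followed across the 4 injury groups and the 4 kidney areas. Ferritin is a hollow shell of heavy and light chains in the cytosol. The heavy chain oxidises ferrous iron so that it can enter the shell, and the light chain favours the formation of the mineral core. Translation of both chains is held back by iron regulatory proteins when iron is scarce, and their transcription is raised by NRF2, a transcription factor of the oxidative stress response. Ceruloplasmin is a copper-bound ferroxidase that works with the iron exporter ferroportin. It circulates as a liver acute-phase protein, and other cell types make it too, including as a form anchored to the membrane. In the kidney the proximal tubule takes up filtered iron and heme proteins, and ferritin is a known part of its defence against heme pigments.

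The study profiled formalin-fixed, paraffin-embedded kidney sections of rats from 4 groups, Sham, RM, HS and RM-HS, on the GeoMx platform with a probe set designed for mouse transcripts. The labels give 3 rats per condition, and the series is about trauma-induced acute kidney injury; they do not spell out RM and HS, and they name no strain, sex, age or time after injury. Regions of interest (ROIs) were selected by hand in the cortex (C), the corticomedullary junction (CMJ), the glomeruli (G) and the medulla (M), so an ROI holds many cells of several types. In such ROIs fewer cells of a type and less RNA per cell cannot be told apart. All 34 RM ROIs compared here, all 32 RM-HS ROIs and 24 Sham ROIs were on plate C, and all 29 HS ROIs and the other 12 Sham ROIs were on plate E. A lone RM glomerular ROI on plate A entered no fit. The wells fall into 12 runs, 3 for each group, each passing once through the areas sampled. Sham runs 1 and 2 are on plate C and Sham run 3 is on plate E. The labels tie no ROI to a rat and do not say that a run is a rat, so ROIs of a run may share an animal, and every p-value over ROIs given here is too small to that extent.

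Values are signals scaled by the authors to the upper quartile of each ROI. Reads in the table ranged from 17894 to 2305964 per ROI with a median of 938179, and the glomerular ROIs were the shallowest, with a median of 93104. Both ferritin chains were above 2 times the negative probe, which targets no transcript, in all 132 ROIs, and Cp in 112 of them. No value in the table was 0. Sham run 1 lay below Sham run 2 for both ferritin chains and Cp in all 4 areas, and HS run 3, which holds no medulla ROI, lay above HS runs 1 and 2 for all 3 genes in the areas it covers. The averages over areas, and the area results whose call or size these runs change most, are given with and without them. Podocyte markers marked the glomerular ROIs, where the summed signal of 6 of the 7 listed podocyte genes reached 430.4 to 737.9 in plate C Sham, against 215 to 279 in its cortex. Of the 7 proximal tubule markers listed, 5 were in the table, and their sum in plate C Sham was 1147 to 2116 in the cortex, 1677 to 2745 at the junction and 234.2 to 284.9 in the medulla.

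RefSeq (assembly GRCr8) lists several copies of both ferritin genes. It names 6 copies of Fth1, 5 of them pseudogenes, and 21 copies of Ftl1, 15 of them pseudogenes, and no copy of Cp. The probes were made for mouse transcripts, so the Fth1 and Ftl1 signals are uncertain as to which copy they report. Of the promoter sequences of the members, that of Cp was matched by symbol in the RefSeq table of GRCr8. Its window runs from 250 bases before to 50 bases after the annotated start. The motifs below were picked after the sequence had been seen and searched on both strands, because factors that bind them are among the genes counted further on: TTGCNNAA of the C/EBP family, TTCNNNGAA of the STAT family, ACGTG of the hypoxia response and TGACNNNGC of the antioxidant response. A match to the C/EBP letters lay on the reverse strand, its first base 72 bases before the start, inside chr2:104368587-104368616 (plus strand), shown with the match in capitals.
Cp: attatttactcTTGTGCAAcattaaattgt
Of 33469 promoter windows of the same length, 10.6% held the C/EBP letters, 8.87% the STAT letters, 19.3% the hypoxia letters and 12.1% the antioxidant letters. The other 3 motifs had no match in the Cp window, which says only that these letters are not in it.

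In the plate C Sham kidney both ferritin chains had their highest medians at the corticomedullary junction. Fth1 in the 6 plate C Sham ROIs of each area had a lowest, median and highest signal of 246, 382 and 685 in the cortex, 1075, 1538 and 1838 at the junction, 201, 297 and 531 in the glomeruli and 554, 883 and 1351 in the medulla. All junction ROIs were above all cortical and glomerular ROIs. Relative to cortex, Fth1 was higher by 1.88 ± 0.22 (log2, SE) at the junction (adjusted p = 9.9e-12) and by 1.10 ± 0.22 in the medulla (adjusted p = 8e-05), and its glomerular difference of -0.39 ± 0.22 did not pass (adjusted p = 0.15). These and all other adjusted p-values come from limma across all genes kept, with Benjamini-Hochberg adjustment, and a gene is called under 0.05, and all are too small where ROIs share a rat. Ftl1 had a lowest, median and highest signal of 100, 138 and 231 in the cortex, 277, 452 and 495 at the junction, 47.6, 79.3 and 120 in the glomeruli and 95.2, 109 and 127 in the medulla. Ftl1 differed from cortex by 1.49 ± 0.17 at the junction (adjusted p = 1.2e-11) and by -0.96 ± 0.17 in the glomeruli (adjusted p = 7.2e-06). Its medullary difference of -0.42 ± 0.17 did not pass (adjusted p = 0.10), although it did without Sham run 1 (-0.75, adjusted p = 0.029). Of all genes, 7.97% were called between the junction and the cortex of Sham, 32.6% between glomeruli and cortex and 11.1% between medulla and cortex. With values divided by the negative probe the sign turned for Fth1 in the glomeruli (0.37) and for Ftl1 in the medulla (0.12), and the Ftl1 call in the glomeruli was lost (-0.20, adjusted p = 0.32). With 1 mean per run and area the Fth1 call in the medulla was lost too (adjusted p = 0.088).

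In plate C Sham, Cp was close to background outside the glomeruli and the medulla. Its median in plate C Sham was 1.92 times the negative probe in the cortex, 2.37 at the junction, 4.76 in the glomeruli and 3.93 in the medulla. The Cp signal was 44.9 to 64.2 in the cortex, 45.4 to 66.7 at the junction, 46.5 to 134 in the glomeruli and 64.9 to 92.8 in the medulla, and the 4 ranges overlapped except that the medulla lay above the cortex. Cp was higher than in the cortex by 0.55 ± 0.16 in the glomeruli (adjusted p = 0.0042) and by 0.48 ± 0.16 in the medulla (adjusted p = 0.030), and differed by 0.05 ± 0.16 at the junction (adjusted p = 0.92). With 1 mean per run and area neither call held (adjusted p = 0.090 and 0.32). The glomerular call was also lost without Sham run 2 (0.42, adjusted p = 0.19), and the medullary call without either Sham run (0.49 and 0.47, adjusted p = 0.22 and 0.35). In the plate E Sham run the order of glomeruli and cortex was reversed. Mean Cp signal in that run, on the log scale, was 42.9 in the glomeruli and 61.0 in the cortex. It was 60.2 at the junction and 75.3 in the medulla. The glomerular ROIs of that run held 1 to 6 Cp reads each.

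After RM both ferritin chains rose in all 4 areas. Fth1 in the RM ROIs had a lowest, median and highest signal of 1322, 1612 and 3688 in the cortex (n = 9), 2609, 4064 and 4807 at the junction (n = 8), 606, 937 and 1303 in the glomeruli (n = 8) and 1707, 2478 and 3719 in the medulla (n = 9). Each of the 34 RM ROIs was above each plate C Sham ROI of its area. How many of all genes separate this way in RM or RM-HS was not counted. Averaged over the 4 areas Fth1 rose by 1.68 ± 0.13 on the log2 scale (adjusted p = 4.9e-20), which is a 3.21-fold change. The fit used 1 correlation within runs for all genes, 0.063 on plate C. Mean log2 Fth1, averaged over areas, was 8.83 in Sham run 1 and 9.74 in Sham run 2, so this standard error understates the spread between runs. By area the rise was 2.27 ± 0.22 in the cortex, 1.40 ± 0.22 at the junction, 1.52 ± 0.22 in the glomeruli and 1.55 ± 0.22 in the medulla, and the largest adjusted p was 3.6e-07. Without Sham run 1 the rise was 1.72 in the cortex, 1.12 at the junction, 0.998 in the glomeruli and 1.07 in the medulla, each still called (largest adjusted p = 0.0035). The test of whether the Fth1 rise differed between the areas did not pass (adjusted p = 0.062), although it did without RM run 3 (0.010), without RM-HS run 3 (0.044), with quantile normalization (0.027) and with a stricter filter (0.031).

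Ftl1, the light chain, rose in each area too, least in the medulla. Its lowest, median and highest signals in RM were 495, 755 and 984 in the cortex, 1314, 1520 and 2077 at the junction, 137, 225 and 369 in the glomeruli and 128, 185 and 217 in the medulla. Here too each of the 34 RM ROIs was above each plate C Sham ROI of its area, by a narrow margin in the medulla, where the highest Sham ROI was at 127. The average rise was 1.62 ± 0.11 (adjusted p = 3.9e-25, 3.07-fold). It was 2.31 ± 0.17 in the cortex (adjusted p = 4.6e-21), 1.90 ± 0.17 at the junction (4.1e-16), 1.57 ± 0.17 in the glomeruli (6.9e-12) and 0.70 ± 0.17 in the medulla (0.0016). The rise differed between areas (limma F test, adjusted p = 7.8e-08). The medullary call was lost without Sham run 1 (0.56, adjusted p = 0.096), with quantile normalization (0.38, adjusted p = 0.13) and with 1 mean per run and area (0.70, adjusted p = 0.093).

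These rises stood against a broad response. In the average over areas 29.8% of the 8536 genes tested on plate C were called between RM and Sham, 1360 higher and 1187 lower, and the median of all genes was -0.06, against 1.62 for the 3 members, all called higher. By area the share of all genes called was 11.1% in the cortex, 11.2% at the junction, 25.5% in the glomeruli and 10.7% in the medulla, and 14.0% of genes differed between areas. The split of higher and lower genes depended on the scaling, with 1116 higher and 44 lower when values were divided by the negative probe and 964 higher and 3169 lower when values were divided by the total of the ROI, which moved the median of all genes from -0.06 to -0.17. The ferritin rises held under each scaling, at 1.04 to 1.78 for Fth1 and 1.23 to 1.71 for Ftl1, the lowest under quantile normalization. Without Sham run 1 the average rise was 1.23 for Fth1 and 1.38 for Ftl1, and without Sham run 2 it was 2.14 and 1.87. Over run means, the 3 RM runs lay above both plate C Sham runs for each chain in the average over areas (exact permutation test, two-sided p = 0.20, the smallest that 3 runs against 2 allow). In all, 60 such tests over runs were made for the 3 genes and their ratio, and the lowest p after Benjamini-Hochberg adjustment was 0.444.

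Markers of the proximal tubule also differed from plate C Sham in the same ROIs. In the cortex the summed signal of the 5 markers in the table was 1147 to 2116 in plate C Sham and 2476 to 4034 in RM. At the junction it was 1677 to 2745 and 5334 to 8427, and in the glomeruli 343.7 to 654.3 and 528.3 to 1209. In plate E Sham it was 2312 to 3915 in the cortex, which overlaps with RM, 2770 to 3010 at the junction and 329.6 to 727 in the glomeruli. In the medulla, where both chains were also called higher, the sum was 234.2 to 284.9 in plate C Sham and 165.2 to 240.4 in RM, which overlap. Their part in the ferritin rise was not tested. Of the 5 macrophage markers in the table, Cd74 and C1qc were called higher on average. There 29.8% of all genes were called in either direction and 15.9% were called higher. The summed signal of the 5 macrophage markers in the medulla was 209 to 261.2 in plate C Sham, 261.7 to 432 in RM and 267.8 to 326 in plate E Sham. Plate C Sham and RM overlapped in the cortex (165.1 to 295 and 247.8 to 328.4), at the junction (165.9 to 260.4 and 210 to 261.4) and in the glomeruli (127.9 to 185.4 and 145.4 to 242.3). Hba-a1, the only one of the 7 erythroid markers in the table, was not called (0.52, adjusted p = 0.12).

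**Figure D1:**
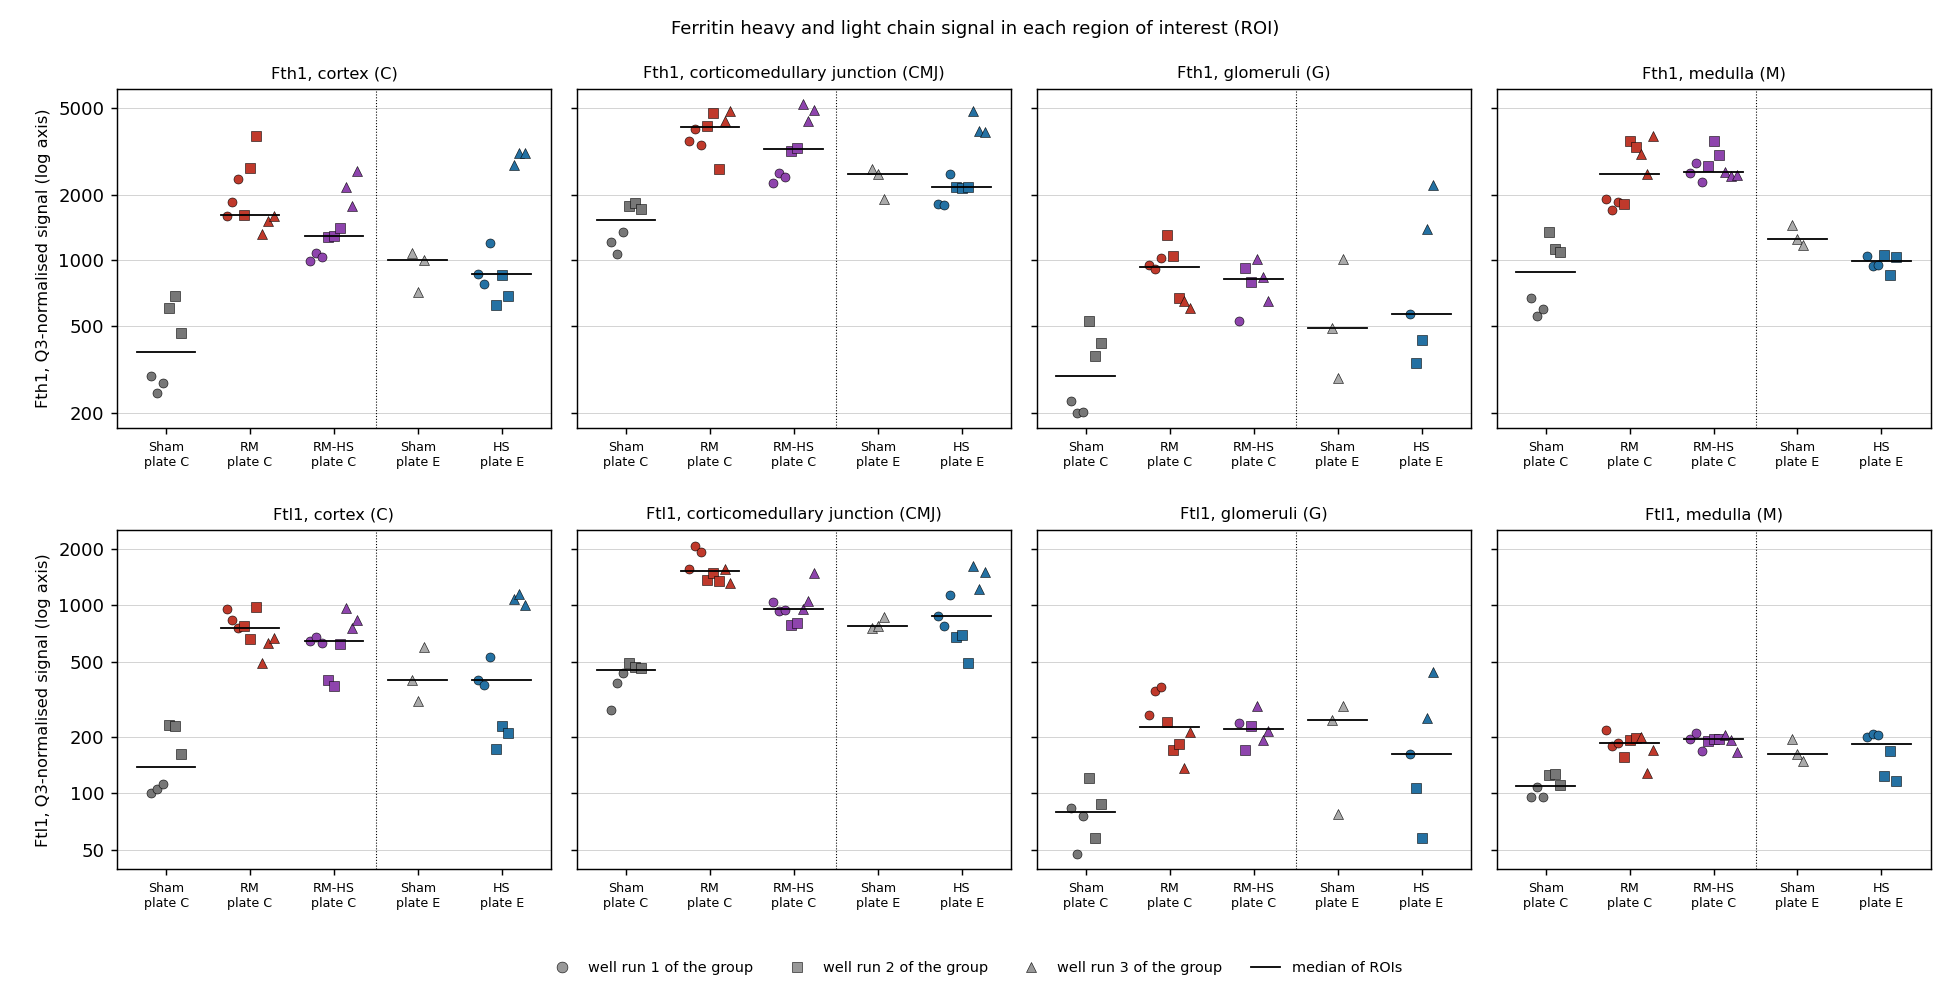
Fth1 (upper row) and Ftl1 (lower row) signal of each ROI on a log axis, by group and plate, in the 4 areas; marker shapes give the well run, horizontal bars the median, and a dotted line parts the plates. In each panel all RM ROIs of plate C lie above all plate C Sham ROIs, and the 3 triangles of HS run 3 in the cortex, at 2727 to 3113 for Fth1, lie apart from the other HS ROIs.

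After RM-HS both ferritin chains were also higher in all 4 areas. Fth1 in RM-HS had a lowest, median and highest signal of 994, 1294 and 2558 in the cortex (n = 9), 2265, 3216 and 5172 at the junction (n = 8), 530, 819 and 1020 in the glomeruli (n = 6) and 2281, 2532 and 3527 in the medulla (n = 9). All RM-HS ROIs but 1 of 32 were above each plate C Sham ROI of their area, the exception being a glomerular ROI at 530, against 531 in the highest Sham ROI. Fth1 rose by 1.50 ± 0.13 on average (adjusted p = 5.4e-17, 2.83-fold), by 1.85 ± 0.22 in the cortex, 1.19 ± 0.22 at the junction, 1.31 ± 0.23 in the glomeruli and 1.65 ± 0.22 in the medulla. Ftl1 in RM-HS had a lowest, median and highest signal of 371, 643 and 964 in the cortex, 783, 951 and 1478 at the junction, 169, 221 and 291 in the glomeruli and 166, 193 and 210 in the medulla. All 32 ROIs were above each plate C Sham ROI of their area. The share of all genes that separate this way was not counted here either. Ftl1 rose by 1.40 ± 0.11 on average (adjusted p = 7.5e-21, 2.65-fold), by 2.09 ± 0.17 in the cortex, 1.23 ± 0.17 at the junction, 1.51 ± 0.18 in the glomeruli and 0.79 ± 0.17 in the medulla (adjusted p = 0.00039). The medullary call of Ftl1 was lost with values divided by the negative probe (0.55, adjusted p = 0.084) and with 1 mean per run and area (0.79, adjusted p = 0.062). The Ftl1 rise differed between areas (adjusted p = 4.7e-05), though not with 1 mean per run and area (adjusted p = 0.053), and that of Fth1 did not pass this test (adjusted p = 0.27). Without Sham run 1 the averages were 1.05 for Fth1 and 1.16 for Ftl1, and by area Fth1 was at 1.31, 0.91, 0.79 and 1.17 in the same order, each still called (largest adjusted p = 0.033, in the glomeruli). RM and RM-HS share the plate C Sham ROIs, so the likeness of the 2 sets of changes is not independent.

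Of all genes, 20.9% were called between RM-HS and Sham in the average over areas, 9.14% in the cortex, 11% at the junction, 18.8% in the glomeruli and 7.93% in the medulla, and 12.7% differed between areas. In the average 1158 genes were higher and 626 lower, against 407 and 345 with values divided by the negative probe, 793 and 2103 with values divided by the total of the ROI and 1158 and 1031 with quantile normalization. The median of all genes was -0.03, and that of the 3 members was 1.40, all called higher.

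RM-HS and RM were compared directly on plate C. The averages over areas did not pass for any member: the difference was -0.18 ± 0.12 for Fth1 (95% interval from -0.42 to 0.06), -0.22 ± 0.10 for Ftl1 (-0.41 to -0.03) and -0.18 ± 0.09 for Cp (-0.35 to -0.01), with adjusted p-values of 0.47, 0.22 and 0.28. Of all genes 3.81% were called, 0.105% in the cortex, 1.50% at the junction, 13.3% in the glomeruli and 2.28% in the medulla. The only area difference called among the members was Ftl1 at the junction, where 7 of the 8 RM-HS ROIs (783 to 1478) lay below the lowest RM ROI (1314 of 1314 to 2077). It was lower in RM-HS by 0.66 ± 0.16 (log2FC -0.66, adjusted p = 0.0087). The call was lost without RM run 1 (-0.52, adjusted p = 0.19), without RM-HS run 1 (-0.66, adjusted p = 0.062), without RM-HS run 2 (-0.55, adjusted p = 0.11), with values divided by the negative probe (-0.68, adjusted p = 0.087), with 1 mean per run and area (-0.68, adjusted p = 0.25) and in the fit of both plates (-0.66, adjusted p = 0.40). Cp in the glomeruli, at -0.38 ± 0.16 (adjusted p = 0.091), passed without RM-HS run 3 (-0.71, adjusted p = 0.0036) and with values divided by the negative probe (-0.66, adjusted p = 0.015). The proximal tubule marker sum at the junction was 5334 to 8427 in RM and 2851 to 5938 in RM-HS, which overlap. Its medians were 6808 and 4050. The sum of the 3 straight proximal tubule markers in the table was 5369 to 7731 in RM and 3984 to 8020 in RM-HS. Its medians were 6299 and 6673. The part of either sum in the Ftl1 difference was not tested.

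**Figure D2:**
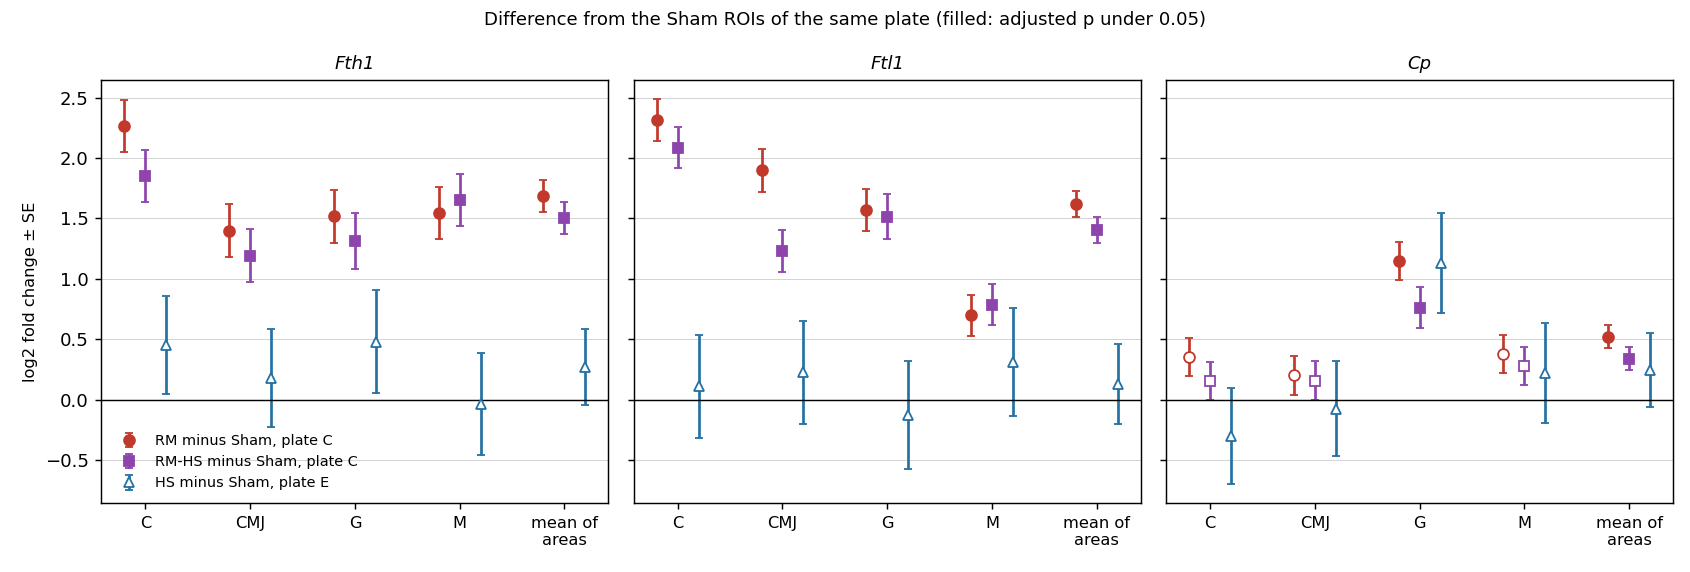
Log2 fold change with its standard error for Fth1, Ftl1 and Cp in each area and in the mean of the areas, for RM and RM-HS against plate C Sham and for HS against plate E Sham; filled symbols passed an adjusted p of 0.05 in limma. Both ferritin chains are filled in all areas for RM and RM-HS, with Ftl1 lowest in the medulla (0.70 and 0.79), Cp is filled in the glomeruli (1.15 and 0.76) and in the mean of the areas, and no HS symbol is filled.

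The balance of the chains was described by the ratio of Fth1 to Ftl1 signal, which was highest in the medulla of RM and RM-HS. The ratio of Fth1 to Ftl1 signal within an ROI does not depend on the scaling of that ROI. Its size depends on the probes, so it is read between groups only. In the medulla the ratio had a lowest, median and highest value of 5.15, 7.97 and 10.8 in plate C Sham, 8.80, 15.3 and 21.7 in RM, and 12.4, 13.6 and 18.2 in RM-HS. The RM ROIs overlapped with Sham and the RM-HS ROIs did not. The mean ratio was 8.0 ± 2.18 (SD, n = 6) in Sham, 14.6 ± 4.77 (n = 9) in RM and 14.2 ± 1.85 (n = 9) in RM-HS. Over runs, the mean log2 ratio in the medulla was 2.61 and 3.29 in the Sham runs, 3.24, 3.93 and 4.22 in the RM runs and 3.73, 4.00 and 3.72 in the RM-HS runs. The differences of 0.84 for RM and 0.86 for RM-HS gave exact two-sided permutation p-values of 0.40 and 0.20, where 0.20 is the smallest that 3 runs against 2 allow. In the cortex the mean ratio was 2.71 ± 0.28 in Sham, 2.70 ± 0.78 in RM and 2.38 ± 0.73 in RM-HS, and in the glomeruli it was 4.20 ± 1.36, 4.00 ± 1.34 and 3.69 ± 1.10. At the junction it was 3.57 ± 0.57 in Sham, 2.57 ± 0.70 in RM and 3.54 ± 1.06 in RM-HS, and there the mean log2 ratio of the RM runs, 0.98 to 1.67, lay below both Sham runs (exact permutation p = 0.20). Averaged over the areas, the log2 ratio of the runs was 1.84 and 2.26 in Sham, 1.74 to 2.33 in RM and 1.72 to 2.43 in RM-HS, which overlap (exact permutation p = 1 for both comparisons).

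Markers of other segments were also summed in the medullary ROIs. The summed signal of the 3 thick ascending limb markers in the table was 1182 to 2560 in plate C Sham, 590.3 to 1075 in RM and 992.3 to 1327 in RM-HS. RM did not overlap with plate C Sham and RM-HS did. In HS it was 850.6 to 1277, below plate E Sham at 2421 to 2964. The mean log2 ratio of Fth1 to Ftl1 in the medulla was 2.57 in HS and 2.94 in plate E Sham. The sum of the 3 collecting duct markers was 236.3 to 665.5 in plate C Sham, 211 to 326.7 in RM and 284.7 to 408 in RM-HS, which overlap. The part of these markers in the ratio was not tested.

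**Figure D3:**
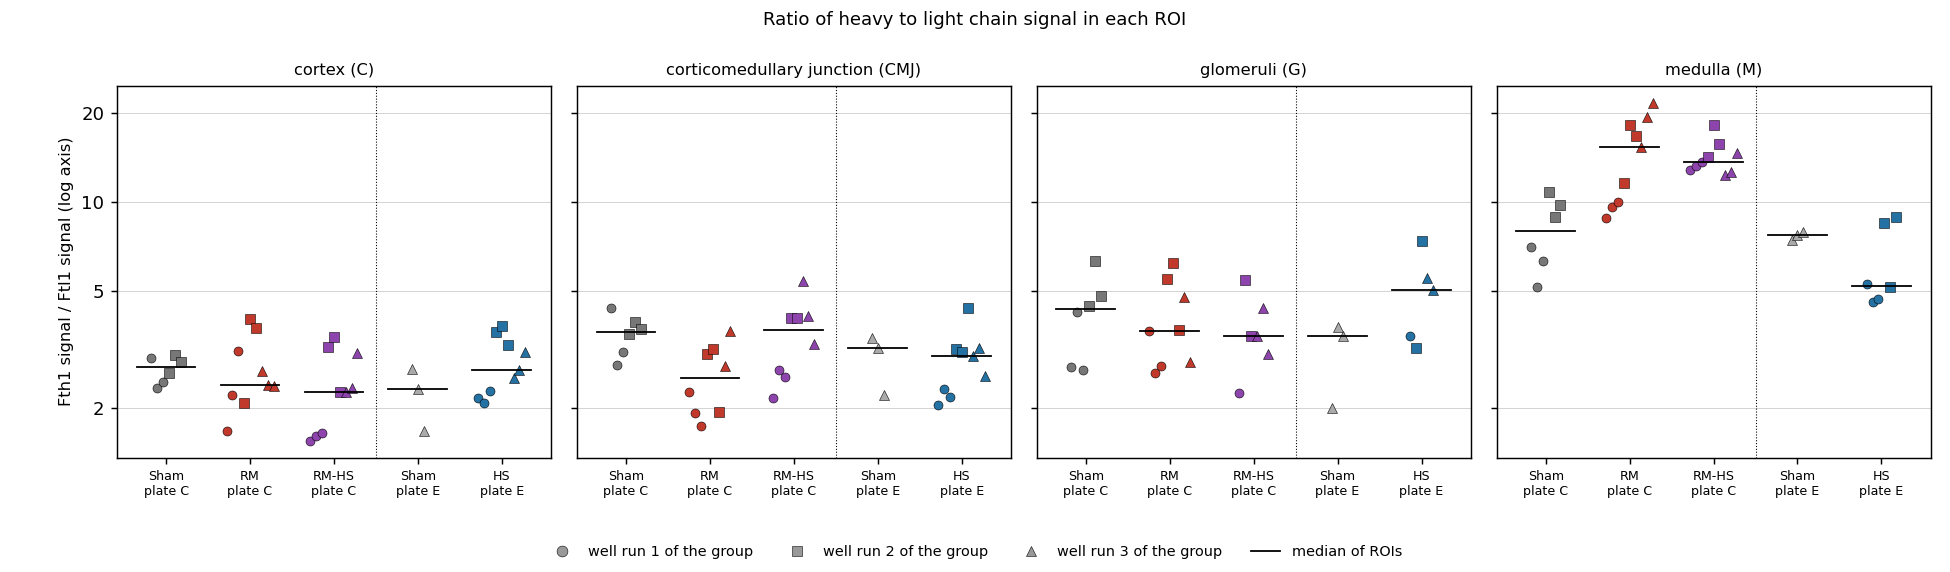
Ratio of Fth1 to Ftl1 signal in each ROI on a log axis, by group and plate, in the 4 areas; shapes give the well run and bars the median. In the medulla the RM and RM-HS medians (15.3 and 13.6) stand above those of plate C Sham (7.97), plate E Sham (7.72) and HS (5.19), while in the other areas the groups overlap.

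Cp was called higher in the glomeruli and in the mean of the areas after RM. In RM glomeruli its lowest, median and highest signals were 116, 193 and 238 (n = 8), against 46.5, 79.1 and 134 in plate C Sham (n = 6), and 6 of 8 RM ROIs were above all Sham ROIs. In multiples of the negative probe the medians were 11.5 and 4.76. These are few reads, 34 to 87 for Cp in the RM glomerular ROIs and 8 to 23 in those of Sham. Cp rose by 1.15 ± 0.16 in RM glomeruli (adjusted p = 1.7e-08), and by 0.87 without Sham run 1 (adjusted p = 0.00083). The other areas did not pass, at 0.35 ± 0.16 in the cortex (adjusted p = 0.15), 0.20 ± 0.16 at the junction (0.41) and 0.38 ± 0.16 in the medulla (0.12). The average over areas rose by 0.52 ± 0.10 (adjusted p = 7.5e-06), 1.43-fold, with all 34 RM ROIs above the Sham mean of their area and 20 above its highest ROI. The change differed between areas (limma F test, adjusted p = 0.0010), though not without Sham run 1 (0.092) or with 1 mean per run and area (0.19). Without Sham run 1 the average was 0.35 (adjusted p = 0.039).

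In RM-HS glomeruli the lowest, median and highest Cp signals were 93.7, 149 and 194 (n = 6), and 4 of 6 ROIs were above all Sham ROIs. Cp rose there by 0.76 ± 0.17 (adjusted p = 0.00059), and differed by 0.16 ± 0.16 in the cortex, 0.16 ± 0.16 at the junction and 0.28 ± 0.16 in the medulla, none of which passed. The average rose by 0.34 ± 0.10 (adjusted p = 0.0062). That call was lost without Sham run 1 (0.17, adjusted p = 0.47), without RM-HS run 3 (0.26, adjusted p = 0.067), with values divided by the negative probe (0.25, adjusted p = 0.27), divided by the total of the ROI (0.24, adjusted p = 0.053), in the fit of both plates (0.34, adjusted p = 0.25) and with 1 mean per run and area (0.31, adjusted p = 0.13). The glomerular call was lost without Sham run 1 (0.49, adjusted p = 0.095), without RM-HS run 3 (0.44, adjusted p = 0.10), with values divided by the negative probe (0.55, adjusted p = 0.085) and with 1 mean per run and area (0.64, adjusted p = 0.062). The test between areas did not pass (adjusted p = 0.10), although it did without RM-HS run 2 (0.010) and with quantile normalization (0.045).

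Some markers of glomerular cells also differed in these ROIs. The summed signal of the 6 podocyte markers in the glomeruli was 430.4 to 737.9 in plate C Sham, 796.8 to 1279 in RM and 560.4 to 957.7 in RM-HS. RM and plate C Sham did not overlap, but plate E Sham, at 853 to 1541, overlapped with RM and RM-HS. In the glomeruli 4 of the 6 were called higher in RM and none lower, where 25.5% of all genes were called. In the averages over areas only Podxl was called, lower in RM (-0.29, adjusted p = 0.015) and in RM-HS (-0.37, adjusted p = 0.0019). The 2 of 5 endothelial markers in the table, Flt1 and Ptprb, summed to 81.42 to 163.6 in plate C Sham, 180.6 to 287.6 in RM and 174.5 to 294.7 in RM-HS. In plate E Sham they summed to 135.7 to 145.4. Their part in the Cp rise was not tested. None of the 4 hepatocyte markers listed is in the table.

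**Figure D4:**
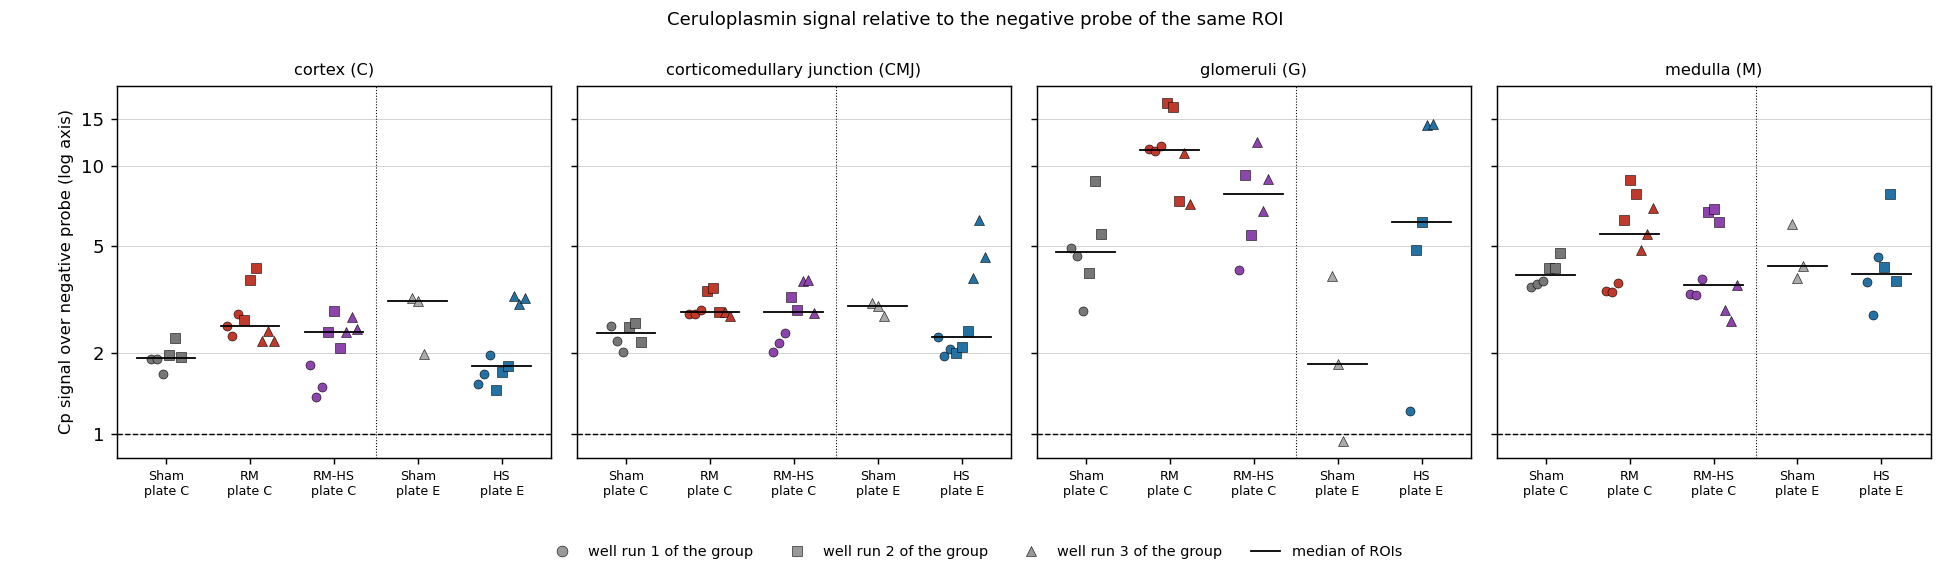
Cp signal divided by the negative probe of the same ROI on a log axis, by group and plate, in the 4 areas; the dashed line marks the level of the negative probe, shapes give the well run and bars the median. The glomerular median is 11.5 in RM, 7.85 in RM-HS and 4.76 in plate C Sham, and in the cortex all medians are between 1.78 and 3.13.

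HS gave no call for any member. HS was compared with the single Sham run of plate E, 29 ROIs against 12. Fth1 in HS had a lowest, median and highest signal of 624, 868 and 3113 in the cortex (n = 9), 1796, 2163 and 4839 at the junction (n = 9), 339, 570 and 2216 in the glomeruli (n = 5) and 858, 993 and 1055 in the medulla (n = 6). The 3 Sham ROIs of plate E were at 719, 1005 and 1083 in the cortex, 1905, 2487 and 2609 at the junction, 291, 489 and 1018 in the glomeruli and 1172, 1253 and 1445 in the medulla. HS and Sham overlapped in the cortex, junction and glomeruli, and in the medulla all 6 HS ROIs were below all 3 Sham ROIs. These medullary ROIs come from 2 HS runs and 1 Sham run, and how many of all genes separate this way was not counted. The fitted difference of Fth1 there was -0.04 ± 0.42 and was not called, and that of the run means was -0.39. The average difference of Fth1 was 0.27 ± 0.31, that of Ftl1 0.13 ± 0.33 and that of Cp 0.24 ± 0.31, each with an adjusted p of 1.

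The intervals were wide, from -0.35 to 0.88 for Fth1, -0.52 to 0.78 for Ftl1 and -0.36 to 0.84 for Cp. Of 8835 genes, limma called 0% in the average over areas, with 75 at an unadjusted p under 0.05, 0% in the cortex, 0% at the junction, 2.60% in the glomeruli and 0.0340% in the medulla, and 2.52% differed between areas. Without HS run 3 the call count was 502. Ftl1 in HS was 172 to 1150 in the cortex, 496 to 1608 at the junction, 58.2 to 442 in the glomeruli and 116 to 207 in the medulla, and overlapped with Sham (309 to 601, 754 to 863, 77.5 to 291 and 148 to 194) in each area. Its differences by area lay between -0.13 and 0.31, with standard errors of 0.43 to 0.45. The highest of them, in the medulla, where HS run 3 has no ROI, turned to -0.015 without the well-run block, with the area fitted alone and without HS run 3.

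The HS runs were spread widely for both ferritin chains. In the cortex the mean Fth1 signal, taken on the log scale, was 935 in HS run 1, 718 in run 2 and 2970 in run 3, at the junction 2001, 2155 and 4177, and in the glomeruli 570, 382 and 1759. Run 3 was above the RM runs in the cortex, which were at 1472 to 2501, and in the glomeruli, where they were at 627 to 974. At the junction it was among them, where they were at 3620 to 4563. Ftl1 followed, with 431, 202 and 1076 in the cortex, 917, 616 and 1435 at the junction and 163, 78.8 and 334 in the glomeruli. For Ftl1 too, run 3 was above the RM runs in the cortex (594 to 845) and in the glomeruli (170 to 323). Without HS run 3 the average differences turned negative, at -0.25 ± 0.11 for Fth1 (adjusted p = 0.21), -0.36 ± 0.16 for Ftl1 (adjusted p = 0.20) and -0.09 ± 0.15 for Cp (adjusted p = 0.80). The proximal tubule marker sum in HS cortex ranged from 1227 to 8484, against 2312 to 3915 in plate E Sham, and its part in the spread was not tested.

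Cp in HS glomeruli ranged from 23.3 to 226 with a median of 105 (n = 5), against 29.1, 38.8 and 69.8 in the plate E Sham ROIs. These values rest on 2 to 35 Cp reads per ROI in HS and 1 to 6 in Sham. The difference of 1.13 ± 0.42 did not pass (adjusted p = 0.13). It passed without HS run 1, which gave 1 glomerular ROI (1.70, adjusted p = 0.031), with values divided by the negative probe (1.55, adjusted p = 0.031) and without the well-run block (1.18, adjusted p = 0.038), and was 0.47 without HS run 3 (adjusted p = 0.35). In the shallowest of these ROIs, a Sham ROI with 17894 reads, Cp had 1 read (0.00559% of reads, 95% Wilson interval 0.000987 to 0.0317%, counting error only). The test of whether the HS change of Cp differed between areas did not pass (adjusted p = 0.17), although it did without HS run 1 (0.010) and with values divided by the negative probe (0.029). In the cortex Cp was 31.7 to 73.6 in HS and 54.6 to 65.1 in Sham, at a median of 1.78 and 3.13 times the negative probe.

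The Sham runs differed among themselves in ferritin. Mean Fth1 signal in the cortex, on the log scale, was 272 in Sham run 1, 579 in run 2 and 921 in run 3, at the junction 1208, 1775 and 2312, in the glomeruli 211, 434 and 525 and in the medulla 609, 1185 and 1285. Ftl1 was 106, 205 and 420 in the cortex, 360, 476 and 797 at the junction, 66.9, 84.8 and 177 in the glomeruli and 99.5, 121 and 167 in the medulla. In the cortex the RM runs, at 1472 to 2501 for Fth1 and 594 to 845 for Ftl1, were above all 3 Sham runs, the run on plate E included. In the medulla the RM runs were at 163 to 193 for Ftl1, which overlaps with the plate E Sham run at 167. In the glomeruli RM run 3, at 170 for Ftl1, was below that Sham run at 177. At the junction RM-HS run 2, at 794 for Ftl1, was below it at 797. In the glomeruli RM-HS run 1, at 530 for Fth1, was just above it at 525. Apart from those below it, all RM and RM-HS run means of both chains were above Sham run 3 of their area. The plate and the run cannot be told apart for that Sham run. The lone RM glomerular ROI on plate A had an Fth1 signal of 465, an Ftl1 signal of 71.1 and a Cp signal of 90.5, each within the range of the plate C Sham glomeruli.

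RM and HS were set against each other in a fit of both plates together, with a plate term. All RM and RM-HS ROIs fitted lay on plate C and all HS ROIs on plate E. The plate term therefore rests on Sham run 3 against Sham runs 1 and 2. Those runs differed in ferritin, so the differences below also carry that gap. Without a plate term the mean log2 signal of the runs, averaged over areas, was 10.96 in RM and 10.40 in HS for Fth1. It was 8.85 and 8.55 for Ftl1, with no medulla ROI in HS run 3. Fth1 was higher in RM than in HS by 1.43 ± 0.29 (adjusted p = 0.00059) and Ftl1 by 1.50 ± 0.28 (adjusted p = 9.2e-05), where 2.48% of all genes were called. Cp differed by 0.28 ± 0.25 (adjusted p = 0.86). RM-HS exceeded HS by 1.24 ± 0.30 for Fth1 (adjusted p = 0.0088) and 1.29 ± 0.28 for Ftl1 (adjusted p = 0.0027), where 1.09% were called, and Cp differed by 0.10 ± 0.26 (adjusted p = 0.998). Without Sham run 1 the calls of both chains for RM-HS were lost (0.78 and 1.04, adjusted p = 0.98 and 0.27), and so was that of Fth1 for RM (0.97, adjusted p = 0.29). The RM-HS calls were also lost without HS run 2 (Fth1 0.94, adjusted p = 0.17, and Ftl1 0.84, adjusted p = 0.14). That of Fth1 was lost too without HS run 1 (1.06, adjusted p = 0.083), RM-HS run 2 (adjusted p = 0.051) or RM-HS run 3 (1.09, adjusted p = 0.098). Without HS run 3 Cp was called higher in RM than in HS (0.61, adjusted p = 0.0078). The interaction of RM and HS was -0.44 ± 0.29 for Fth1, -0.33 ± 0.27 for Ftl1 and -0.42 ± 0.25 for Cp, and none passed (adjusted p = 0.997 each), where 0.125% of genes were called.

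Other genes of iron handling were counted in the averages over areas, where 29.8% of all genes were called in RM and 20.9% in RM-HS. Of the 5 genes listed under iron storage, release and export, Pcbp1, a chaperone that delivers iron to ferritin, was higher in RM by 1.17 (adjusted p = 2e-22) and in RM-HS by 0.83 (adjusted p = 6.7e-14), with an HS difference of -0.05. Ftmt, the mitochondrial ferritin, was the only other one called, at -0.25 in RM (adjusted p = 0.023). The median of the 5 was -0.04 in RM, near that of all genes. Of 7 iron uptake genes tested, Slc39a14, a metal importer that takes up non-transferrin iron (0.50, adjusted p = 2.6e-05), and Steap2, a metalloreductase (0.27), were called higher in RM and none lower, and Slc39a14 and Slc11a2, an importer of ferrous iron, in RM-HS. Of 4 genes of iron sensing, Ireb2, which encodes an iron regulatory protein, was called higher (0.23) and Bmp2 lower (-0.24). None of 10 heme handling genes was called in the RM average, and Abcg2, a porphyrin exporter, was called in RM-HS (0.38, adjusted p = 0.012).

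NRF2 targets and acute-phase genes were also called in RM and RM-HS. Of 15 NRF2 pathway genes tested, 9 were called higher in RM and none lower, with a median of 0.33 against -0.06 over all genes, and 8 were called higher in RM-HS and none lower, where 29.8% and 20.9% of all genes were called. Sqstm1, an autophagy receptor, rose by 1.89 in RM, 1.73 in RM-HS and, without a call, differed by 0.88 in HS. Gclm, a subunit of the enzyme that starts glutathione synthesis, rose by 1.40 in RM and 0.94 in RM-HS, Nfe2l2, which encodes NRF2, by 0.71 and 0.65, and Taldo1, an enzyme of the pentose phosphate pathway, by 0.76 and 0.63. By area, 12 of the 15 NRF2 pathway genes were called higher in RM cortex, 8 at the junction, 5 in the glomeruli and 4 in the medulla. Of all genes, 11.1%, 11.2%, 25.5% and 10.7% were called there in either direction, and 9.97%, 8.24%, 16.2% and 8.06% were called higher. Of 6 acute-phase genes, Cebpb, Cebpd, Fgg, Socs3 and Stat3 were called higher in RM and in RM-HS. Stat3, the transcription factor of interleukin-6 signalling, rose by 1.26 and 1.08, and Cebpb by 0.97 and 1.20. In the HS average, where 0% of all genes were called, neither list had a call.

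Copper genes and hypoxia genes were counted because Cp carries copper and is a known hypoxia target. Of 10 copper genes tested, 4 were called higher in RM, where 29.8% of all genes were called, and 4 in RM-HS, where 20.9% were, and none lower. They were the metallothioneins Mt1 (1.47 and 1.52) and Mt2 (2.42 and 2.64), the superoxide dismutase Sod1 (1.08 and 0.76) and Cox17, a copper chaperone of mitochondria (0.33 and 0.39). Against the same shares of all genes, of 11 hypoxia genes 8 were called higher and Ankrd37 lower in RM, and 9 higher and Ankrd37 lower in RM-HS. Ndrg1 was at 0.96 and 0.85, Epas1 at 0.58 and 0.65, Aldoa at 0.58 and 0.59 and Pgk1 at 0.45 and 0.37. The lists were chosen with results of these data known, so these counts are not independent support.

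The genes most like each member were ranked by the Pearson correlation of their mean log2 signal over the 12 group and area means of plate C, among 8535 other genes. For Fth1 they were the ribosomal protein gene Rps23 (0.98), Rps13, Gng12, Rpl19 and Rps15a. For Ftl1 they were Sqstm1 (0.98), the lysosomal protease gene Lgmn (0.97), St13, Zfp180 and the proton pump subunit gene Atp6v1g1. For Cp they were the growth factor gene Vegfa (0.97), Ptbp3, Klf7, Cemip2 and the VEGF receptor gene Flt1 (0.95). Fth1 and Ftl1 correlated at 0.74, which ranked Ftl1 at 918 for Fth1 and Fth1 at 732 for Ftl1. Cp correlated at -0.14 with Fth1 and -0.35 with Ftl1. These are descriptions over 12 means that share libraries and areas.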

How the data were processed

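Deposited values were used as given, a table of signal that the authors scaled to the upper quartile of each ROI, per the file headers. Only human builds, GRCh38 and hg38, appear in the submitters' processing notes, and how the probe reads were counted is not stated there. Groups, areas and plates came from the sample titles. Genes were kept if above 2 times the negative probe in 10% or more of the fitted ROIs, and log2(signal + 1) was fitted in limma 3.58.1 (R 4.3.3, statmod 1.5.0) with 1 mean per group and area, the well run as a random block and variances with a trend. Fold changes are on the log2(signal + 1) scale, two-sided, adjusted over all genes kept. Fits were tested on simulated data. Reads per ROI, the smallest whole numbers that fit the steps of the signal within 0.001 of a read, served to describe depth. Python 3.11.15 with pandas 2.3.3, scipy 1.17.1 and matplotlib 3.10.9 gave the descriptions. The members, lists and tests were chosen with earlier results of these data known. Named genes are the members, up to 4 called genes per list with the lowest p in RM against Sham, or the lowest one with no call, and the 5 likest genes; Ankrd37, Cd74, C1qc, Fgg and the glomerular marker genes were named after their values were seen. Alternatives were other pseudocounts, filters and scalings, no block, run means, both plates together, each area fitted alone (chosen after seeing the data) and each run left out. Some genes are not reported here.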

Additional observations from a re-analysis of the deposited data

Results flagged for a closer look

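A junction ROI of RM-HS run 3 had the highest Ftl1 signal of its 8 ROIs, 1478, next to 1056, a gap of 0.529 of the group's range. It was the only one of 48 groups of ROIs tested across the 3 genes in which an extreme ROI stood apart by Dixon's criterion, and chance gives about 1 in 20.

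The effect of an injury differed between the 4 areas for Ftl1 in RM (limma F test, adjusted p = 7.8e-08), for Ftl1 in RM-HS (adjusted p = 4.7e-05) and for Cp in RM (adjusted p = 0.0010). With 1 mean per run and area the last 2 did not pass (adjusted p = 0.053 and 0.19). The Ftl1 change was largest in cortex, 2.31 and 2.09, and smallest in medulla, 0.70 and 0.79. The Cp change was largest in glomeruli, 1.15.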

How the results depend on the processing

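The rises of Fth1 and Ftl1 in RM and RM-HS, averaged over areas, kept their direction and call in every alternative run, and so did that of Cp in RM. Leaving out 1 well run at a time gave 1.23 to 2.14 for Fth1 and 1.38 to 1.87 for Ftl1 in RM, 1.05 to 1.96 and 1.16 to 1.65 in RM-HS, and 0.35 to 0.69 for Cp in RM. For Cp in RM-HS the call was lost with values divided by the negative probe (0.25), divided by the table total (0.24), as run means (0.31) and in the fit of both plates (0.34), and leaving out runs gave 0.17 to 0.51. Changes of sign, all among values given below, were found in Sham areas, in area differences of RM-HS against RM, in Cp of the RM-HS medulla, in HS results and across plates, and the cause was not tested. Genes called in RM against Sham numbered 1560 with the stricter filter, 1160 with the negative probe, 4133 with the table total, 4111 without the well-run block, 733 in the fit of both plates and 1151 to 2825 leaving out runs. The counts for RM-HS were 752 with the negative probe, 2896 with the table total, 3006 without the block, 603 with both plates and 827 to 2162 leaving out runs. For RM-HS against RM they were 609 with the negative probe, 1123 without the block, 56 as run means, 20 with both plates and 135 to 509 leaving out runs, and the split of higher and lower genes was 91 and 234 in the reported fit, 7 and 602 with the negative probe. For RM-HS against Sham it was 1158 and 626, 407 and 345 with the negative probe, 793 and 2103 with the table total. For HS the counts were 44 without the block, 8 with quantile normalization, 15 with both plates and 0 to 502 leaving out runs.

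The F statistic between areas for RM was 4.31 with the stricter filter, 4.89 with quantile normalization and 2.04 to 6.21 leaving out runs for Fth1, and 3.79 as run means and 3.79 to 10.1 leaving out runs for Cp. For RM-HS it was 5.91 as run means for Ftl1, and 4.35 with quantile normalization and 1.36 to 6.32 leaving out runs for Cp. For HS it was 5.58 with the negative probe and 1.91 to 9.86 leaving out runs for Cp. Within Sham, with the negative probe Fth1 in the glomeruli gave 0.37, Ftl1 there -0.20 and Ftl1 in the medulla 0.12, with the table total Cp at the junction gave -0.066, and with quantile normalization Ftl1 in the medulla gave -0.85. Run means gave 0.55 for Cp in the glomeruli, 0.48 for Cp in the medulla and 1.10 for Fth1 in the medulla. Leaving out runs gave 0.42 to 0.68 for Cp in the glomeruli, 0.47 to 0.49 for Cp in the medulla and -0.75 to -0.089 for Ftl1 in the medulla.

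For RM-HS against RM, with the negative probe Ftl1 on average gave -0.40, now called, and in the medulla Fth1 gave -0.17 and Ftl1 -0.19. With quantile normalization Fth1 gave 0.065 at the junction and -0.021 in the medulla, and Ftl1 0.16 in the glomeruli. Leaving out runs gave -0.44 to 0.010 for Ftl1 in the cortex, -0.50 to 0.072 for Fth1 and -0.14 to 0.070 for Cp at the junction, -0.21 to 0.24 for Ftl1 in the glomeruli, and -0.12 to 0.25 for Fth1 and -0.39 to 0.092 for Cp in the medulla. Cp in the medulla of RM-HS against Sham gave -0.010 to 0.47.

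For HS against Sham, leaving out runs gave averages of -0.25 to 0.58 for Fth1, -0.36 to 0.58 for Ftl1 and -0.088 to 0.46 for Cp. By area it gave for Fth1 -0.17 to 0.85 in the cortex, -0.15 to 0.38 at the junction, -0.27 to 1.03 in the glomeruli and -0.39 to 0.23 in the medulla, for Ftl1 -0.51 to 0.70, -0.086 to 0.52, -0.82 to 0.45 and -0.015 to 0.65, and for Cp at the junction -0.29 to 0.079. In the glomeruli Ftl1 gave 0.30 with the negative probe. In the medulla Fth1 gave 0.020 with the table total and 0.18 with quantile normalization, and Ftl1 gave -0.015 without the block and with each area fitted alone. Across plates, leaving out runs gave 0.97 to 1.93 for Fth1 and 0.078 to 0.61 for Cp in RM against HS, 0.78 to 1.75 for Fth1, 0.84 to 1.75 for Ftl1 and -0.10 to 0.43 for Cp in RM-HS against HS, and -0.74 to 0.066 for Fth1 and -0.77 to 0.13 for Ftl1 in the interaction. No paired analysis was possible because the labels do not tie replicate numbers to animals. The count test was not run, and leaving out Sham run 3 could not be fitted, since HS and plate E then cannot be told apart. The shallow glomerular ROIs hold few Cp reads.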
